A study of Mus musculus with 10 samples.

Results

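This section describes 10 mouse genes of calcium buffering and store handling in beta cells: the cytosolic buffer gene Calb1, the endoplasmic reticulum (ER) pump genes Atp2a2 and Atp2a3, the release channel genes Ryr2, Itpr1, Itpr2 and Itpr3, the store sensor gene Stim1, the entry channel gene Orai1 and the plasma membrane pump gene Atp2b1. The genes were listed by function and selected on, among other things, their fold changes between LPS and untreated libraries, which were already known. They were matched by symbol among 56748 Ensembl gene identifiers, and all 10 had enough counts to be among the 15942 genes tested. RNA-seq gene counts came from 5 LPS libraries (6 to 10) and 5 untreated libraries (1 to 5). The islets came from NOD males, 6 to 8 weeks old, of an inbred line prone to autoimmune diabetes. They were cultured with lipopolysaccharide (LPS, a component of bacterial outer membranes) at 50 ng/ml for 48 hours, or were untreated. Beta cells were then sorted by flow cytometry from the dispersed islets. LPS met whole islets, so other islet cells were present during the exposure. The labels call the libraries independent samples without naming animals, so p-values measure the spread between these libraries.

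In beta cells a rise of cytosolic calcium triggers insulin release. Buffer proteins such as calbindin bind part of that calcium, SERCA pumps move it into the ER, and plasma membrane pumps move it out of the cell. Ryanodine receptors and inositol trisphosphate (IP3) receptors let it back out of the ER, and when the store empties, the ER sensor STIM1 opens ORAI1 channels in the plasma membrane.

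Counts assigned to genes ran from 18465188 to 27379892 per library. Levels are normalised counts (CPM), relative to each library's gene total after TMM scaling. The beta cell marker list summed to between 101960 and 134050 CPM in LPS and between 118260 and 137070 CPM in untreated libraries, led by Ins2 and Ins1. Of its 10 genes 3 were called lower in LPS without overlap (edgeR), the glucose transporter gene Slc2a2 (log2 fold change -0.86 ± 0.08, SE), the peptide gene Ucn3 (-0.64 ± 0.10) and the zinc transporter gene Slc30a8 (-0.59 ± 0.06). Hormone transcripts of other islet cells were present too: Gcg lay between 4022 and 8759 CPM in LPS and between 4845 and 14063 CPM in untreated libraries, and Sst between 4754 and 8684 CPM in LPS and between 5795 and 7851 CPM in untreated libraries. Leukocyte genes were low: of 10 macrophage genes 2 were tested, Cd68, a lysosomal gene, at 19.4 to 32.3 CPM in LPS and 14.0 to 19.9 CPM in untreated libraries and called higher in LPS, and C1qa at 12.8 to 16.9 CPM in LPS and 15.0 to 23.1 CPM in untreated libraries. Of 8 lymphocyte genes Cd79a was tested, at 1.14 to 2.78 CPM in LPS and 2.14 to 3.61 CPM in untreated libraries, and Ptprc, Cd3e, Cd3g and Ms4a1 had 0 counts in all libraries.

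To show how the control regions of these genes differ in sequence, RefSeq windows from 250 bases before to 50 after an annotated start are printed for 3 of them. They are the window of Atp2a3, at chr11:72960919-72961218 on the plus strand, the first of a pair of windows of Atp2b1, at chr10:98914392-98914691 on the plus strand, and the window of Ryr2, at chr13:12106896-12107195 on the minus strand, all in GRCm38.p6. Atp2a3 and Ryr2 were the most and the least abundant members per length with such a window. The library-to-library deviations of Atp2b1 correlated with those of Atp2a2, with the limits given further below. Capitals mark each GGGCGG (GC box) on either strand.
Atp2a3: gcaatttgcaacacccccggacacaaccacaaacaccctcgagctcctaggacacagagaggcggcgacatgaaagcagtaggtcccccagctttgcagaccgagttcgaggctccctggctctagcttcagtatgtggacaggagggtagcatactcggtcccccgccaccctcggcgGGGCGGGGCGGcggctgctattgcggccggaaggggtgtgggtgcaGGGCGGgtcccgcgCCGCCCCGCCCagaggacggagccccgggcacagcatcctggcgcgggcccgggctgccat
Atp2b1: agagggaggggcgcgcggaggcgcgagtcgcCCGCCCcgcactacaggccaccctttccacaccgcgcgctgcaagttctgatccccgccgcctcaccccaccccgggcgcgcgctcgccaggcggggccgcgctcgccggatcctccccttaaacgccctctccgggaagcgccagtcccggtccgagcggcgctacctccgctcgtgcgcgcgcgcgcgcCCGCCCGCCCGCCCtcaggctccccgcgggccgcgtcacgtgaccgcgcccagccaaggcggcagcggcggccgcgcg
Ryr2: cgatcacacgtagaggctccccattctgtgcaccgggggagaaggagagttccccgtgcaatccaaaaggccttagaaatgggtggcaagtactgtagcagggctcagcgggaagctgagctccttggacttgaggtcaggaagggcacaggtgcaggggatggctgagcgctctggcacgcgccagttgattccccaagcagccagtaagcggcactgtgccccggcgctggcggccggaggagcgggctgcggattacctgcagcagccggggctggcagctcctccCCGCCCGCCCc

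The table of windows held 8 for 7 of the members, and none for Calb1, Atp2a2 or Itpr1. All 8 contained GGGCGG on at least one strand, against 46.2% of the 21263 windows of protein-coding genes. Copies numbered 8 in Stim1, 5 in Atp2a3, 5 in Itpr2, 4 and 3 in the Atp2b1 windows, 3 in Orai1, 2 in Ryr2 and 1 in Itpr3. These numbers did not follow the order of levels per length. The content of G and C of the 8 windows ran from 65.3% in Ryr2 to 79.3% in both Atp2b1 windows. Over protein-coding windows the median was 56.3% and the upper quartile 64.7%. The share of 46.2% was not matched for this content. TATAAA was in none of the 8 and in 12.6% of protein-coding windows. Motifs were counted separately on both strands, with overlaps allowed. Which start sites these beta cells use was not measured.

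Calb1 (ENSMUSG00000028222) encodes calbindin, an EF-hand protein that buffers cytosolic calcium. It had 5.27, 8.21, 9.74, 7.52 and 4.85 CPM in LPS libraries 6 to 10, against 11.5, 15.5, 13.2, 14.0 and 11.7 CPM in untreated libraries 1 to 5. Every LPS library lay below every untreated one, with LPS 10 and LPS 6 the lowest. The means were 7.12 ± 2.05 CPM in LPS and 13.2 ± 1.68 CPM in untreated libraries (SD, n = 5 each), and the fitted log2 fold change was -0.89 ± 0.18 (SE). The depth behind these values was 108 to 227 counts per LPS library and 284 to 382 counts per untreated library. Because this contrast was known when the members were listed, its values are a description here, without a test. In bulk samples, fewer cells of a type and less RNA per cell cannot be told apart.

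**Figure D1:**
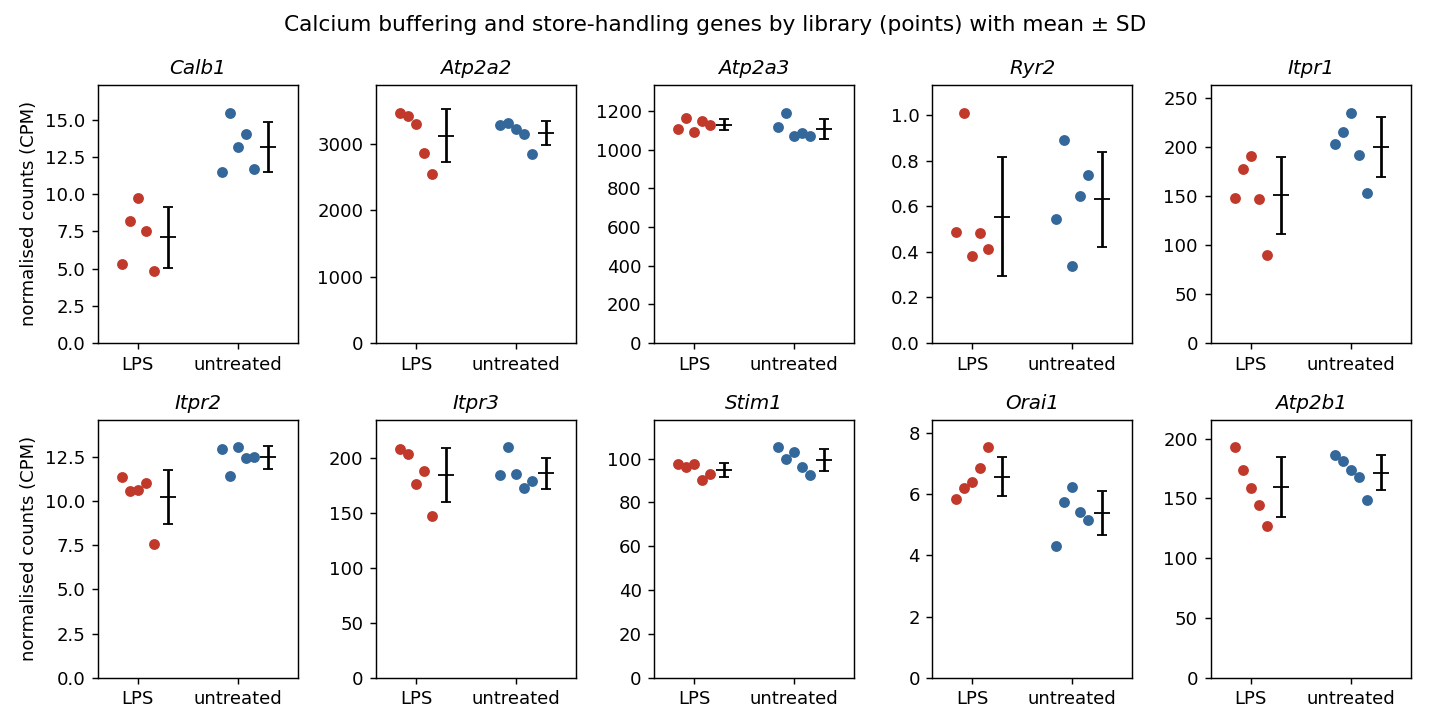
Normalised counts (CPM, linear axes from 0) of the 10 genes in each of 5 LPS and 5 untreated libraries (points), with the mean and SD beside them. Calb1 and Itpr2 have groups that do not overlap, at 4.85 to 9.74 CPM in LPS and 11.5 to 15.5 CPM in untreated libraries for Calb1, while the pump genes Atp2a2 and Atp2a3 overlap widely.

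Among the 10 genes, Calb1 was the 1 past the threshold of the fit over all genes (edgeR's quasi-likelihood test, adjusted p under 0.05), and none was higher. Over all tested genes 0.928% passed as lower and 2.84% as higher, and since the list was made with this contrast in view, nothing is read from the member count (3.77% either way). Calb1 and Itpr2 had LPS libraries all below the untreated ones, which held for 1.87% of all tested genes. The median log2 fold change was -0.09 over the 10 genes and -0.01 over all genes tested.

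Calb1 also varied within the groups, and this variation followed the endothelial and mesenchymal marker lists by both measures used, and the delta and PP lists by Pearson's r alone. Deviations of log2 CPM from the group means were set against those of 10 marker lists over the 10 libraries. The delta cell list gave r = 0.90 (permutation p = 0.00841, adjusted over the 10 lists 0.029) and rho = 0.81, which did not pass (permutation p = 0.0454, adjusted 0.151), with r = 0.75 without LPS 10 and LPS 8. The endothelial list gave r = 0.65 (permutation p = 0.005, adjusted 0.029) and rho = 0.78 (permutation p = 0.00642, adjusted 0.0321), and r was 0.69 without untreated 1 and LPS 10. For the mesenchymal list r was 0.65 (permutation p = 0.00871, adjusted 0.029) and rho 0.73 (permutation p = 0.00505, adjusted 0.0321), with r = 0.53 without untreated 5 and LPS 6. The pancreatic polypeptide (PP) list reached r = 0.78 (permutation p = 0.0186, adjusted 0.0465), but rho = 0.62 did not pass (permutation p = 0.0938, adjusted 0.21), and r was 0.46 without LPS 8 and LPS 10. The beta, alpha, macrophage, lymphocyte, acinar and ductal lists did not pass by either measure, with r = -0.12 for beta cells and adjusted permutation p of 0.172 or more. The beta coefficient depended on few libraries, as r was 0.57 without untreated 5 and LPS 10. Without the libraries farthest from each list's median, r was 0.26 for alpha, -0.18 for macrophage, -0.40 for acinar and -0.68 for ductal genes. It was 0.91 for the lymphocyte list, which had 1 tested gene.

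Some of these marker lists also held genes that differed between the groups, as the beta list did with Slc2a2, Ucn3 and Slc30a8. In the alpha list Slc7a2 was called lower (log2 fold change -0.51 ± 0.08, SE), and in the ductal list Spp1 was called higher (0.97 ± 0.17). Alpha genes summed to 4384 to 9256 CPM in LPS and 5367 to 14642 CPM in untreated libraries. Ductal sums were 559 to 706 CPM in LPS and 485 to 619 CPM in untreated libraries, and acinar sums 129 to 574 CPM in LPS and 224 to 423 CPM in untreated libraries. Of the 4 delta cell genes none was called, and their sum lay between 4981 and 9082 CPM in LPS and between 6084 and 8218 CPM in untreated libraries. Of the 2 PP genes Ppy was called lower, and the sum lay between 954 and 2153 CPM in LPS and between 1583 and 2988 CPM in untreated libraries. Of 6 endothelial genes tested out of 8 listed, Kdr was called lower, and the list summed to 9.18 to 13.2 CPM in LPS and 10.5 to 36.8 CPM in untreated libraries, with no member at 0 in all libraries. Most of the sum in LPS was Esam, at 7.66 to 9.61 CPM. Kdr and Flt1 had 0 to 20 counts per LPS library, and both had 0 in LPS 10, as Emcn did. The mean of this list was thus near the limit of detection for several genes in LPS. Of 5 mesenchymal genes tested out of 7 none was called, at sums of 3.47 to 25.8 CPM in LPS and 4.76 to 91.1 CPM in untreated libraries. With a list's mean as a covariate, the log2 fold change of Calb1 was -0.75 ± 0.11 for delta, -0.83 ± 0.15 for mesenchymal and -0.71 ± 0.17 for alpha cells (SE). It was -0.61 ± 0.18 with the endothelial and -0.46 ± 0.18 with the PP list. The part of these cells in the Calb1 difference was not tested.

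The 5 genes whose deviations were most like those of Calb1, out of 9143 ranked genes with a mean of at least 10 CPM, were Abcd3 (Pearson r = 0.96 over 10 libraries), Ptpra (0.96), Wdr6 (0.95), Usp29 (0.95) and Elmo2 (0.95). They were chosen for this likeness, so it carries no test. None of the 5 was called between LPS and untreated, with edgeR adjusted p from 0.0535 for Abcd3 to 0.950 for Ptpra. Among the members, Itpr1 was the most like Calb1 (r = 0.77).

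The ER pump genes were by far the most abundant members. Atp2a2 encodes SERCA2, the widely expressed ER calcium pump. It had 3478, 3432, 3308, 2864 and 2557 CPM in LPS libraries 6 to 10, against 3291, 3327, 3225, 3155 and 2859 CPM in untreated libraries 1 to 5. The groups overlapped, LPS 10 was the lowest and LPS 6 the highest of all 10. The log2 fold change was -0.02 ± 0.09 (SE), and its sign differed between settings.

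Atp2a3 encodes SERCA3, a pump with lower calcium affinity that beta cells are known to express. Its levels were 1109, 1163, 1093, 1149 and 1126 CPM in LPS libraries 6 to 10, against 1117, 1192, 1068, 1087 and 1071 CPM in untreated libraries 1 to 5. This was a narrow range in both groups, with a coefficient of variation of 2.55% in LPS and 4.61% in untreated libraries, and a log2 fold change of 0.03 ± 0.06 (SE). Per kilobase of annotated exons, Atp2a3 made up 29.5 ± 2.93% of the summed ER pump level in LPS and 28.7 ± 0.997% in untreated libraries (SD, n = 5 each). That share was highest in LPS 10 (33.6%) and LPS 9 (31.6%), the LPS libraries with the least Atp2a2. Untreated 5, with 2859 CPM of Atp2a2 against 2864 CPM in LPS 9, had a share of 30.1%.

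The release channel genes differed among themselves. Itpr1 encodes the type 1 IP3 receptor. It had 147, 178, 191, 146 and 89.6 CPM in LPS libraries 6 to 10, against 203, 215, 235, 191 and 153 CPM in untreated libraries 1 to 5. Untreated 5 lay within the LPS range, and LPS 8 and untreated 4 were nearly equal. The log2 fold change of -0.41 ± 0.17 (SE) did not pass the threshold, and it was 0.14 ± 0.13 with the PP list as a covariate.

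Itpr3, the type 3 IP3 receptor gene, had 207, 204, 176, 188 and 147 CPM in LPS libraries 6 to 10, against 184, 209, 185, 172 and 179 CPM in untreated libraries 1 to 5. The groups overlapped throughout, with a log2 fold change of -0.01 ± 0.09 (SE). Itpr2, the type 2 receptor gene, was less abundant, at 11.4, 10.6, 10.6, 11.01 and 7.58 CPM in LPS libraries 6 to 10, against 12.9, 11.4, 13.1, 12.4 and 12.5 CPM in untreated libraries 1 to 5. Its groups met at LPS 6 and untreated 2, at 11.37 and 11.43 CPM, without overlapping. The log2 fold change of Itpr2 was -0.29 ± 0.11 (SE) and did not pass.

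Per kilobase of annotated exons, Itpr3 made up 70.0 ± 4.30% of the summed IP3 receptor level in LPS and 63.9 ± 3.09% in untreated libraries (SD, n = 5 each). The share of Itpr1 was 27.6 ± 4.34% in LPS and 33.5 ± 3.17% in untreated libraries, and the ranges of both shares overlapped between groups. These shares depend on the length used: by the longest transcript, Itpr3 held 56.5% in LPS and 49.5% in untreated libraries. Ryr2, the cardiac-type ryanodine receptor gene, was near the limit of detection, with 8 to 28 counts per LPS library and 8 to 22 per untreated library. It averaged 0.556 ± 0.260 CPM in LPS and 0.632 ± 0.208 CPM in untreated libraries (SD, n = 5 each), and a difference was not detectable at this depth (log2 fold change -0.16 ± 0.36, SE).

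Stim1 and Orai1, the sensor and channel of store-operated entry, overlapped between the groups. Stim1 had 97.4, 96.0, 97.4, 90.2 and 92.8 CPM in LPS libraries 6 to 10, against 105, 99.7, 103, 96.1 and 92.7 CPM in untreated libraries 1 to 5. The groups overlapped, with a log2 fold change of -0.07 ± 0.06 (SE). Orai1 had 5.86, 6.22, 6.42, 6.88 and 7.54 CPM in LPS libraries 6 to 10, against 4.31, 5.76, 6.25, 5.42 and 5.18 CPM in untreated libraries 1 to 5. Only untreated 3 reached into the LPS range, and the log2 fold change of 0.29 ± 0.13 (SE) did not pass.

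Atp2b1 encodes the plasma membrane calcium pump PMCA1, which exports calcium from the cell. It had 193, 173, 159, 145 and 127 CPM in LPS libraries 6 to 10, against 186, 181, 174, 168 and 149 CPM in untreated libraries 1 to 5. The groups overlapped, with the lowest and the highest library both in the LPS group, and the log2 fold change was -0.11 ± 0.10 (SE).

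**Figure D2:**
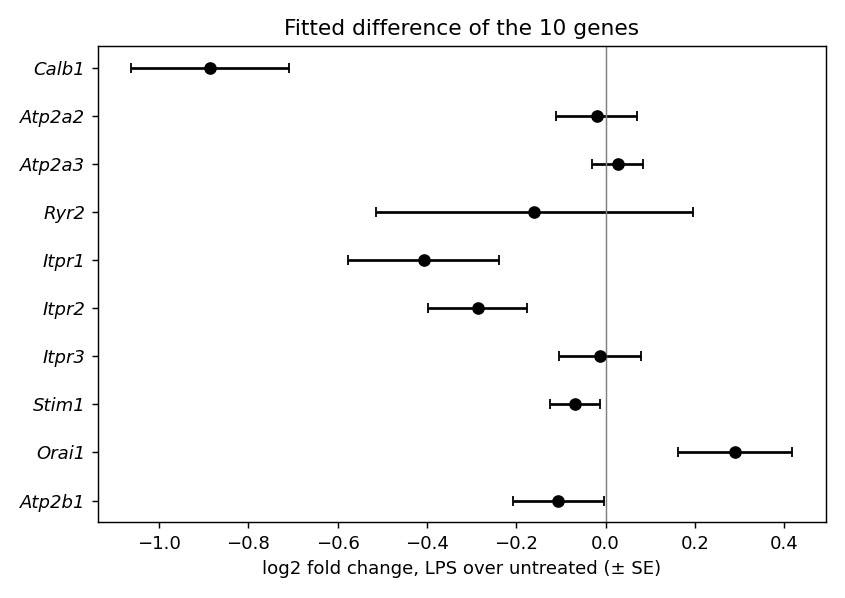
Fitted log2 fold change of LPS over untreated for the 10 genes (points) with the standard error of the fit (bars). Calb1 lies at -0.89, Itpr1 at -0.41 and Itpr2 at -0.29, Orai1 at 0.29, and the other 6 between -0.16 and 0.03.

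Levels were compared between genes per kilobase of annotated exons, a property that the listing did not use. Atp2a2 came first, with 514 ± 65.9 CPM per kb in LPS and 522 ± 30.7 in untreated libraries (SD, n = 5 each), ahead of Atp2a3 with 214 CPM per kb in LPS and 210 in untreated libraries. Itpr3 followed at 20.4 CPM per kb in LPS and 20.6 in untreated libraries, then Atp2b1 at 10.5 in LPS and 11.3 in untreated libraries. Itpr1 had 8.20 CPM per kb in LPS and 10.9 in untreated libraries, and Stim1 9.14 in LPS and 9.58 in untreated libraries. Orai1 had 2.87 CPM per kb in LPS and 2.35 in untreated libraries, and Calb1 1.47 in LPS and 2.72 in untreated libraries. The release channel genes Itpr2 (0.692 CPM per kb in LPS and 0.843 in untreated libraries) and Ryr2 (0.0193 in LPS and 0.0219 in untreated libraries) closed the order. Of the 9 neighbouring pairs, 7 differed in a two-sided exact sign-flip permutation test (adjusted over the 9 pairs). For 6 of them the higher gene led in 10 of 10 libraries, with exact p = 0.00195, the smallest that 10 libraries can give, and adjusted p = 0.00293. Atp2b1 exceeded Itpr1 in 9 of 10 libraries (exact permutation adjusted p = 0.0327), but not past the threshold in 5 of the 10 tests with a library left out (without LPS 6, 7, 9 or 10 or untreated 5, adjusted p = 0.0653 each). Over all 10 libraries Itpr1 and Stim1 did not differ beyond their spread (exact permutation adjusted p = 0.928), nor did Orai1 and Calb1 (0.138). For both pairs the test pooled groups whose means ran in opposite order, so equal levels are not shown. Orai1 was above Calb1 in LPS and below it in untreated libraries, while Itpr1 was below Stim1 in LPS and above it in untreated libraries. With the longest transcript as length, Atp2b1 (23.2 CPM per kb over all libraries) and Stim1 (22.3) stood above Itpr3 (20.6) and Itpr1 (17.7), while the order of the other 6 was as before.

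**Figure D3:**
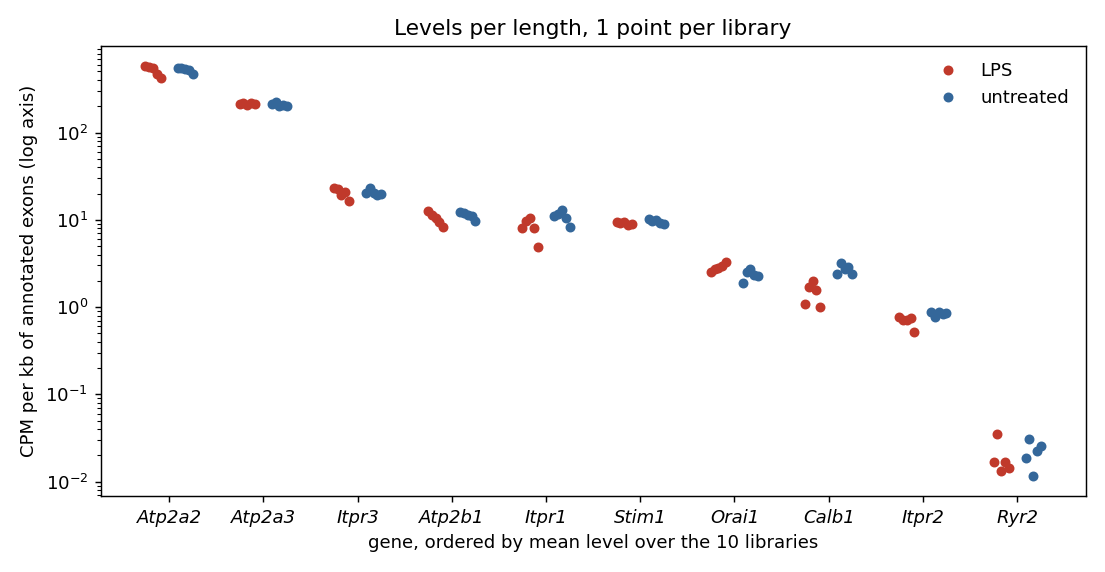
Level of each gene in CPM per kilobase of annotated exons (log axis), with 5 LPS libraries to the left and 5 untreated libraries to the right for each gene. The ER pump genes Atp2a2 and Atp2a3 lie above 200 CPM per kb and Ryr2 below 0.04.

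Deviations of the members from their group means, which do not contain the LPS difference, were compared in 45 pairs over the 10 libraries. Atp2a2 and Atp2b1, the ER and plasma membrane pump genes, deviated together with r = 0.95 (permutation p = 0.00018, adjusted over 45 pairs 0.0081) and rho = 0.92 (permutation p = 0.00053, adjusted 0.0238). Without LPS 10 and untreated 5, the libraries farthest from the median, r was 0.88. Both genes were lowest of their group in LPS 10 and in untreated 5. The deviations of both also followed a surrogate variable estimated from all genes, with r = -0.87 for Atp2a2 and -0.97 for Atp2b1 as a description over the 10 libraries. That variable rose with the library number in both groups, from -0.53 in LPS 6 to 0.53 in LPS 10 and from -0.41 in untreated 1 to 0.44 in untreated 5. Libraries within a group thus shared variation over many genes. Atp2b1 fell in that order in both groups and Atp2a2 in LPS. The permutation test takes the libraries of a group as exchangeable and does not account for this order. With the surrogate variable removed, Atp2a2 and Atp2b1 had r = 0.89, which did not pass (permutation p = 0.00133, adjusted 0.0598). None of the other 44 pairs passed: Atp2a2 with Itpr1 reached r = 0.85 (permutation p = 0.0134, adjusted 0.145; rho = 0.76, permutation p = 0.0298, adjusted 0.335), and r was 0.40 without LPS 10 and untreated 5. In all, 36 of the 45 coefficients were positive, with a median of 0.24.

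**Figure D4:**
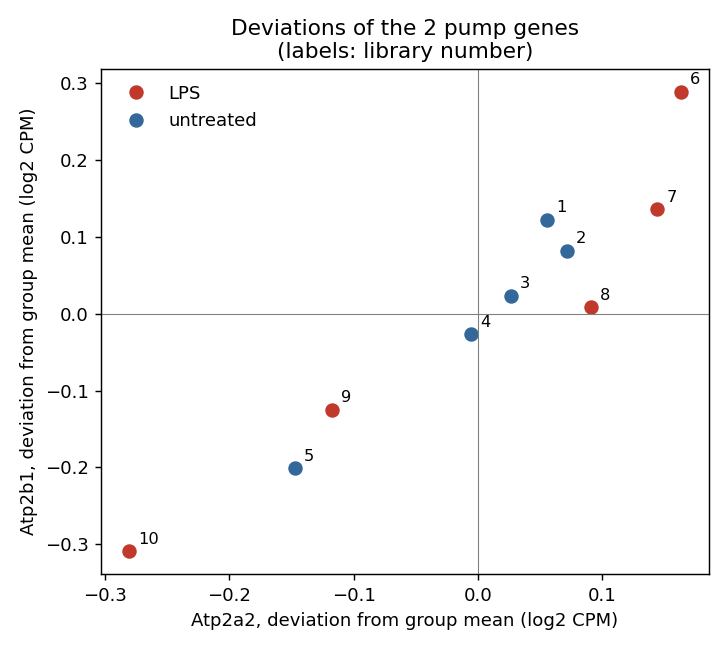
Deviation of log2 CPM from the group mean for Atp2a2 (horizontal) and Atp2b1 (vertical), 1 point per library, labelled with the library number. The 10 points lie near 1 line (r = 0.95), with LPS 10 at the low end and LPS 6 at the high end. With the surrogate variable removed r was 0.89 and did not pass (permutation test, adjusted p = 0.0598).

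A wider list of 122 other calcium-handling genes in 8 groups describes how genes around the members differed between LPS and untreated. This list too was chosen with earlier results of these data known, so nothing is read from its share of calls. Of 97 tested, 4 rose and 2 fell (edgeR's quasi-likelihood test, adjusted over all 15942 genes), or 6.19% against 3.77% of all genes tested, and the median log2 fold change was -0.02 against -0.01. The other 25 were too low to be tested, among them Calb2, Pln and Sln with 0 counts in all libraries. Pln and Sln encode small inhibitors of SERCA pumps in muscle.

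Mcub, whose product is an inhibitory subunit of the mitochondrial calcium uniporter, rose. It had 9.32, 11.4, 11.4, 12.9 and 12.9 CPM in LPS libraries 6 to 10, against 7.42, 6.08, 7.01, 6.54 and 7.11 CPM in untreated libraries 1 to 5, without overlap. On the log2 scale the difference was 0.76 ± 0.11 (SE; adjusted p = 0.00124 in edgeR), and none of the other 11 genes of mitochondrial uptake and exchange passed.

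Orai2, a relative of Orai1, rose too (0.35 ± 0.08 on the log2 scale, SE; adjusted p = 0.0313 in edgeR). It had 37.2, 32.2, 29.3, 31.2 and 31.5 CPM in LPS libraries 6 to 10, against 26.8, 27.2, 23.6, 26.5 and 22.6 CPM in untreated libraries 1 to 5. The groups did not overlap, but the call was lost in 6 of the 10 fits with 1 library left out, without untreated 3, 4 or 5 or LPS 6, 7 or 9, at log2 fold changes of 0.29 to 0.37. It was the 1 gene of 10 tested in the store-operated entry group to pass. Saraf, an inhibitor of store-operated entry, had 379 ± 19.7 CPM in LPS and 327 ± 18.9 CPM in untreated libraries (SD, n = 5 each; adjusted p = 0.0776 in edgeR).

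Of 15 genes tested of IP3 formation and removal, 2 passed, both kinases that phosphorylate IP3, in opposite directions. Itpkb fell to 169 ± 8.97 CPM in LPS, against 210.0 ± 11.3 CPM in untreated libraries (SD, n = 5 each; log2 fold change -0.32 ± 0.06 SE, edgeR adjusted p = 0.00860). Itpkc rose to 96.4 ± 17.4 CPM in LPS, against 61.3 ± 12.1 CPM in untreated libraries (0.65 ± 0.14 SE, edgeR adjusted p = 0.0162). For both genes the groups did not overlap. Itpkc was not called without untreated 2 (log2 fold change 0.64) or untreated 3 (0.61).

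Of 10 cytosolic buffers and sensors tested, Vsnl1, a calcium sensor of the visinin family, fell to 4.69 ± 0.682 CPM in LPS, against 7.40 ± 1.11 CPM in untreated libraries (SD, n = 5 each). On the log2 scale the difference was -0.66 ± 0.14 (SE; adjusted p = 0.0194 in edgeR), and it was not called without untreated 2, LPS 7 or LPS 9 (-0.63, -0.64 and -0.61). Among 10 pumps, exchangers and pump regulators, Slc24a3, a potassium-dependent sodium-calcium exchanger gene, rose (1.69 ± 0.36 SE, edgeR adjusted p = 0.0161) at a level of 0.962 ± 0.399 CPM in LPS and 0.295 ± 0.0799 CPM in untreated libraries. It was not called without LPS 7 (1.63).

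In the other 3 groups no gene passed: 9 ER luminal binding proteins, 15 release channels and regulators, and 16 genes of calcineurin, NFAT and CaM kinases. Hspa5, the ER chaperone BiP, had 2679 ± 210.3 CPM in LPS and 2219 ± 113 CPM in untreated libraries, and Calr, the luminal calcium-binding protein calreticulin, 2109 ± 137 CPM in LPS and 1748 ± 113 CPM in untreated libraries (SD, n = 5 each). Their log2 fold changes were both 0.27, at edgeR adjusted p = 0.0535 and 0.0514. Fkbp1a, a binding partner of ryanodine receptors, stood at 246 ± 14.8 CPM in LPS and 244 ± 14.6 CPM in untreated libraries, and Ahcyl1, a regulator of IP3 receptors, at 221 ± 11.6 CPM in LPS and 233 ± 6.08 CPM in untreated libraries. Camk2b (0.384) and Rcan3 (0.986), the most abundant genes of the calcineurin group, did not pass either (edgeR adjusted p).

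**Figure D5:**
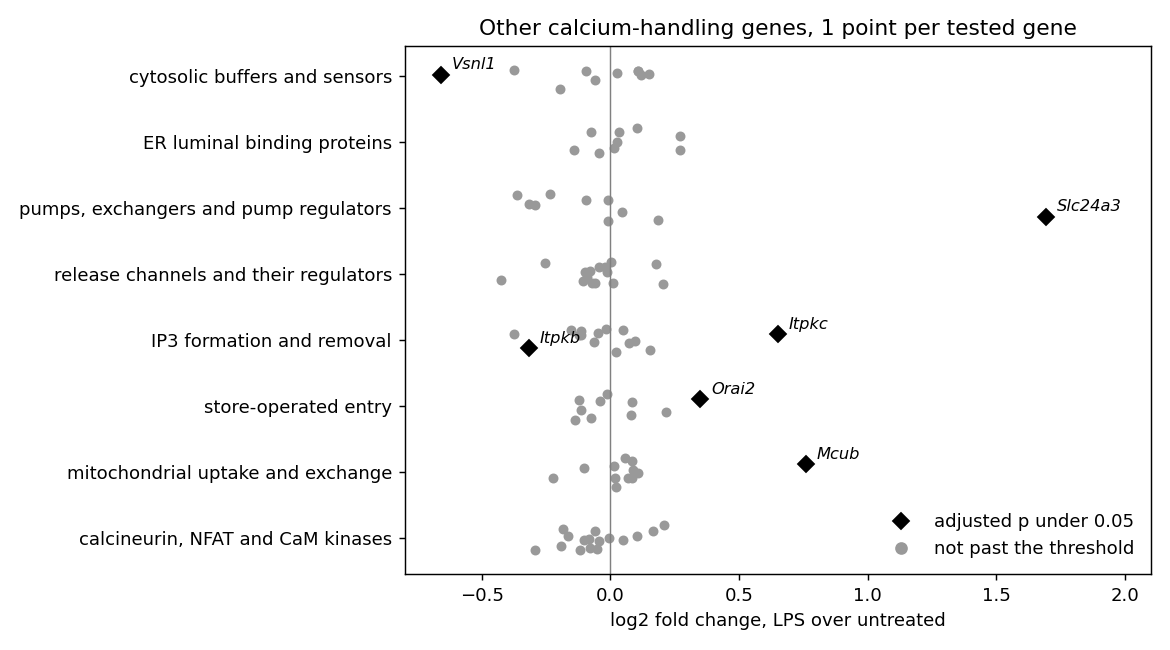
Log2 fold change of LPS over untreated for the 97 tested genes of 8 calcium-handling groups, 1 point per gene (vertical scatter within a group carries no value). Black diamonds are the 6 genes past an adjusted p of 0.05: Slc24a3, Mcub, Itpkc and Orai2 to the right of 0, and Vsnl1 and Itpkb to the left.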

How the data were processed

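Sorted beta cells of male NOD mice gave 5 LPS and 5 untreated RNA-seq libraries, grouped and numbered by their titles. The raw counts per Ensembl gene were used as deposited, 1 file per library. The submitters' processing notes name FastQC, Trimmomatic, STAR, SAMtools, HTSeq, DESeq2 and GRCm39, without versions. Whether counting used strand is not given in the sources used here. Opposite-strand genes overlap at most 2.58% of a member's exon length (Itpr3). Reads from these shared stretches may be included, or may have been counted as ambiguous and so left out. Totals that name no gene (15.4 to 20.2% of a file's counts) were left out. Of 56748 identifiers, 52073 matched a symbol.

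The filter was filterByExpr of edgeR 4.0.16 in R 4.3.3 (minimum count 10, and 15 in total). After TMM scaling, each gene was tested with the quasi-likelihood F test without covariates, with Benjamini-Hochberg adjustment over 15942 genes and calls at 0.05. DESeq2 1.42.0, limma 3.58.1 and sva 3.50.0 served the alternatives. The fit was tested on simulated data with 15688 genes for LPS against untreated. Of 48 genes lowered by 1 on the log2 scale 79.2% were called, and of 50 raised by 1, 72%. Of 50 genes lowered by 0.5, 46% were called, and of 49 raised by 0.5, 42.9%. Of 15491 unchanged genes 0.052% were called. Genes were drawn independently, without the variation that libraries of a group shared over many genes. These rates may therefore not hold for the data themselves. Exon lengths came from GENCODE for GRCm38, without coordinates, and tests of levels per length added a pseudocount of 0.1. Deviations were taken from log2 CPM (prior count 2), with 100000 permutations within groups. Libraries of a group differed by more than sampling noise (chi-square per gene at least 6.14), so none was a repeat count of another. Each was treated as 1 replicate, though this measure cannot show that the libraries came from separate animals. Depth alone sets a floor of counting error, and PCR copies cannot be told from separate molecules.

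The members and lists were chosen with earlier results of these data known, and the alpha, delta, PP and mesenchymal covariates the correlations of Calb1 with marker lists and the removal of the surrogate variable were added after seeing the data. The named genes are the members, up to 4 called genes of each calcium group or otherwise its 2 most abundant, the 5 genes most like Calb1, and leading marker genes. Saraf, Kdr, Esam, Flt1, Emcn, Slc7a2, Spp1 and the genes at 0 were named after their values were seen.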

Additional observations from a re-analysis of the deposited data

Results flagged for a closer look

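Within the 20 groups of 5 values examined (10 genes, each in LPS and untreated libraries), 2 held a library far from the rest, where chance gives about 1 in 20. Ryr2 had 1.01 CPM in LPS 7 and 0.488 CPM in the next highest LPS library, on 28 and 10 counts. Itpr2 had 7.58 CPM in LPS 10 and 10.6 CPM in the next lowest LPS library. Without LPS 10 the log2 fold change of Itpr2 was -0.19, and without LPS 7 that of Ryr2 was -0.52.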

How the results depend on the processing

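No paired analysis was run, because the groups share no replicate number in the labels and pairing by order would be a guess. A surrogate variable of all genes rose with the library number in both groups, from LPS 6 to LPS 10 and from untreated 1 to untreated 5. The labels give no batch or pairing for this order, and no fit paired the libraries by it. The log2 fold change of Calb1, as a description, lay between -1.03 and -0.46 in the 25 other settings. No member was called (0 called lower each) with the endothelial list, the PP list or the share of ENSMUSG00000119584 as a covariate. Calb1 was then at -0.61, -0.46 and -0.93. ENSMUSG00000119584 is an abundant gene whose identifier matched no symbol here. That share was 0.227 to 0.427% of counts in LPS and 0.366 to 0.942% in untreated libraries, and only untreated 3 lay within the LPS range. As a covariate it was therefore in part aligned with the groups. So were the other 2 covariates. The endothelial mean (log2 CPM) was -1.43 to 0.32 in LPS and 1.43 to 2.27 in untreated 2 to 5, with untreated 1 at -1.17. Ppy, 1 of the 2 genes of the PP list, was called lower in LPS. The cause of the lost calls was not tested. None of the other members was called in any setting. The PP covariate moved the log2 fold changes of Atp2a2 to 0.15, Itpr1 to 0.14 and Stim1 to 0.0049, while the share covariate moved Ryr2 to 0.59. Ryr2 could not be fitted with the filter at 1 CPM in 5 libraries.

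Counts over all genes (453 higher, 148 lower) were 864 and 471 with 1 surrogate variable, 693 and 301 with limma-voom and quality weights, 654 and 322 with DESeq2, 173 and 11 with the endothelial, 191 and 28 with the PP and 141 and 16 with the share covariate, and 324 to 458 and 75 to 166 with a library left out. The lower count was 75 without untreated 2, 77 without untreated 3, 89 without untreated 4 and 76 without LPS 9. Of the other calcium-handling genes (4 higher, 2 lower), 9 and 4 were called by DESeq2, 7 and 4 with limma-voom and quality weights, 9 and 5 with the surrogate variable, 1 and 0 with the endothelial or the PP covariate and 0 and 0 with the share covariate, and 2 to 5 and 1 to 3 with a library left out. Higher calls were 2 without untreated 3 or LPS 7, and lower calls 1 without untreated 2, LPS 7 or LPS 9. Mcub kept its call in 24 of 25 settings and Itpkb in 22, Itpkc in 20, Vsnl1 in 19, Slc24a3 in 18 of 24 and Orai2 in 13.

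Of the 9 neighbouring pairs of levels, 6 or 7 differed with a library left out. In the 5 untreated libraries alone 0 can pass, by the number of libraries. By the longest transcript Itpr3 was lower than Atp2b1 (mean log2 difference -0.17, exact permutation adjusted p = 0.0044). The mean log2 difference of Itpr1 over Stim1 (-0.01) lay between -0.056 and 0.079 with a library left out (0.0086 without LPS 6, 0.079 without LPS 10) and was 0.17 in untreated libraries alone, and that of Orai1 over Calb1 (0.38) was -0.20 in untreated libraries alone. Atp2b1 over Itpr1 did not pass without LPS 6, 7, 9 or 10 or untreated 5. With DESeq2 size factors or rho, 1 pair of members deviated together, as before. With the surrogate variable removed 0 pairs did. Depth limits genes such as Ryr2 and Slc24a3, with 65 and 110 counts summed over LPS and 77 and 36 over untreated libraries.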
